A study of Arabidopsis thaliana with 15 samples.

Results

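RCA, PRK, SBPASE and HPR are nuclear genes for enzymes that fix carbon in the chloroplast or recover carbon lost from that pathway, and their transcripts were followed through the stomatal lineage of Arabidopsis thaliana. The members were chosen by gene, with earlier results of these data known, so shares of all probe sets beside their counts are descriptions. They are RCA (AT2G39730), PRK (AT1G32060), SBPASE (AT3G55800) and HPR (AT1G68010), which makes 4 of the 12663 genes that have a probe set of their own among the 20956 probe sets of the deposited table. Each has 1 such probe set. Another probe set is listed to both HPR and AT5G05370. It is not counted as a member, and its values are given apart.

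Expression was measured on 15 ATH1 arrays of protoplasts sorted by fluorescence from the shoots of 14-day-old Col seedlings, 3 arrays for each of 5 populations. Early precursors carried SPCHp::SPCH-YFP and hold the mother cells of meristemoids together with young meristemoids, per the labels. Middle precursors carried MUTEp::nucGFP and hold meristemoids late in their life and guard mother cells early in theirs. Late precursors carried FAMAp::GFP-FAMA and hold older guard mother cells along with guard cells that are still young. Mature guard cells came from the enhancer trap line E1728::GFP, and the epidermis was sorted with ML1p::YFP-RCI2A, which marks the whole epidermis and so can include cells of the lineage. All plants grew on medium with 1% sucrose, under 16 hours of light and 8 hours of darkness at 25 °C, and all tissue spent 2 hours in the solution that releases protoplasts. Because every population came from a different reporter line, a difference of line and one of stage cannot be told apart, and the SPCH and FAMA reporters are fusions to the regulator itself. The labels do not say that replicates came from separate cultures, so p-values measure the spread between these samples, which may be technical.

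In the Calvin cycle, Rubisco joins carbon dioxide to ribulose bisphosphate, and the products are partly used to remake that acceptor. Rubisco activase, the product of RCA, frees Rubisco of inhibitory sugar phosphates. SBPASE encodes sedoheptulose bisphosphatase, which takes part in remaking the acceptor, and PRK encodes phosphoribulokinase, which makes ribulose bisphosphate itself. When Rubisco takes up oxygen, photorespiration recovers the product through chloroplast, peroxisome and mitochondrion, and HPR, the peroxisomal hydroxypyruvate reductase, makes glycerate near the end of that route. These transcripts are abundant in mesophyll, and guard cells also hold chloroplasts.

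Values are log2 expression from RMA, so a difference of 1 is a doubling. A probe set's level is not comparable with that of another probe set, and 1 value per probe set does not resolve splice forms. The 15 array medians lay between 2.52 and 2.68, and a mean at or below 2.68 is called near background here. All 4 genes stood above that bound on every array. SPCH was highest in early precursors (9.11 ± 0.10 on average, against 2.27 ± 0.20 in the epidermis; SD, n = 3) and FAMA (FMA in the annotation) in late precursors (10.11 ± 0.26, against 3.19 ± 0.18). These 2 populations were sorted on fusions of SPCH and FAMA themselves, so the high SPCH and FAMA values are no independent check of identity. MUTE was highest in middle precursors, but at 2.37 ± 0.43, below the bound of 2.68. SPCH, FAMA and MUTE were the 3 measured of 7 precursor markers. Together they summed to log2 values of 9.03 to 9.21 in early, 6.75 to 7.29 in middle and 9.88 to 10.4 in late precursors. The sums were 6.998 to 7.57 in mature guard cells and 3.99 to 4.20 in the epidermis. The ranges of middle precursors and mature guard cells overlapped, so this sum did not set those populations apart. The 3 measured of 10 guard cell markers summed to 10.3 to 10.4 in mature guard cells and 10.2 to 10.9 in late precursors, against 7.09 to 7.53 in the epidermis, so they did not set mature guard cells apart from late precursors, and AT4G14480 among them had a mean near background in every population. The sums were 5.17 to 7.77 in early and 6.73 to 8.45 in middle precursors, and both ranges overlapped that of the epidermis. On early replicates 1, 2 and 3, AT1G22690 of these markers was at 6.99, 2.73 and 2.28 and CHX20 at 6.46, 4.88 and 4.79. No epidermis marker on the list of 9 was measured. Replicates of early precursors were the least alike, with a median SD of 0.56 over 9960 probe sets with a mean above the bound, against 0.24 to 0.36 in the other populations.

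The 4 genes were lower in every lineage stage than in the epidermis by group mean, and 6 of the 16 differences passed limma's moderated test at an adjusted p of 0.05. SBPASE fell in early precursors, RCA and HPR fell in middle precursors, and RCA, SBPASE and HPR fell in late precursors. The 16 differences from the epidermis ran from -3.83 to -1.75 on the log2 scale. For PRK, SBPASE and HPR all 12 lineage arrays lay below all 3 epidermis arrays, which 2.19% of all probe sets also did. For RCA 11 of 12 did, the exception being early precursor replicate 3. In bulk samples, fewer cells that express a gene and less of its RNA per cell cannot be told apart.

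**Figure D1:**
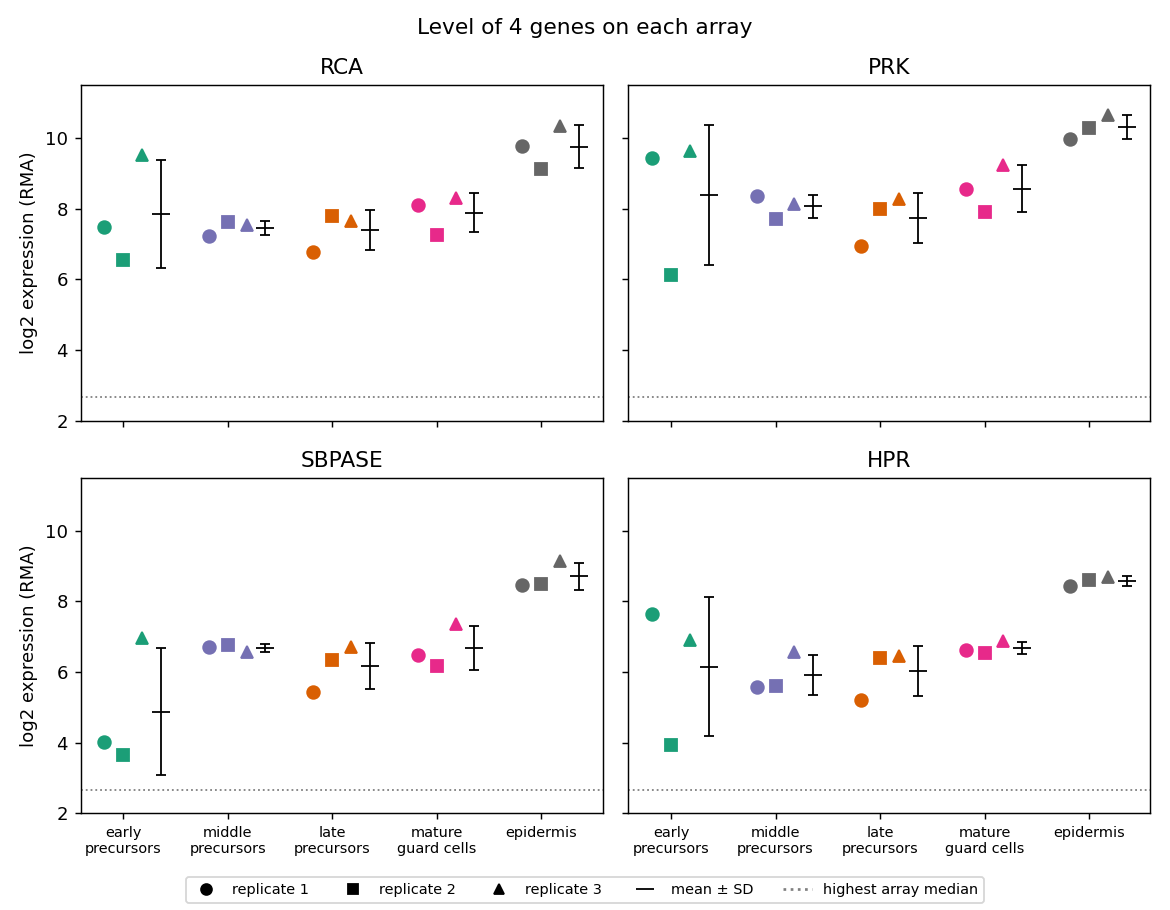
Log2 expression of RCA, PRK, SBPASE and HPR on each of the 15 arrays, with points shaped by replicate number, black bars for the group mean ± SD (n = 3) and a dotted line at the highest array median, 2.68. The epidermis arrays stand above the lineage arrays for PRK, SBPASE and HPR, and for RCA early precursor replicate 3, at 9.52, lies inside the epidermis range of 9.13 to 10.35.

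RCA, the activase gene, was at 7.47, 6.54 and 9.52 in early precursor replicates 1, 2 and 3. Middle precursors gave 7.24, 7.61 and 7.53, late precursors gave 6.76, 7.81 and 7.64, and mature guard cells gave 8.09, 7.25 and 8.31, whereas the epidermis gave 9.77, 9.13 and 10.35. Early precursor replicate 3 was the single lineage array within the epidermis range, and the other lineage arrays covered 6.54 to 8.31. The order of the means was late precursors (7.40 ± 0.56), middle precursors (7.46 ± 0.20), early precursors (7.85 ± 1.53), mature guard cells (7.88 ± 0.56) and epidermis (9.75 ± 0.61; SD, n = 3 each). For each of the 4 genes, neighbouring stages in the order of means differed by less than the larger of their SDs, and the epidermis stood above the next population by more than either SD.

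PRK, the phosphoribulokinase gene, was at 9.42, 6.11 and 9.63 on the early arrays, 8.36, 7.72 and 8.12 on the middle arrays, 6.94, 7.99 and 8.27 on the late arrays and 8.55, 7.90 and 9.23 on the guard cell arrays. The epidermis arrays stood at 9.98, 10.29 and 10.65. Early precursors thus held both the highest and the lowest lineage arrays for PRK, which were replicates 3 and 2. The means ran from late precursors (7.73 ± 0.70) through middle precursors (8.07 ± 0.33), early precursors (8.39 ± 1.97) and mature guard cells (8.56 ± 0.67) to the epidermis (10.31 ± 0.34; SD, n = 3 each).

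SBPASE, the bisphosphatase gene, was at 4.03, 3.65 and 6.95 on the early arrays, 6.70, 6.78 and 6.56 on the middle arrays, 5.44, 6.33 and 6.70 on the late arrays and 6.48, 6.18 and 7.37 on the guard cell arrays. The epidermis arrays stood at 8.46, 8.50 and 9.15. Early replicates 1 and 2 were below every other array, while early replicate 3 lay among the later stages. The means ran from early precursors (4.88 ± 1.81) through late precursors (6.16 ± 0.65), mature guard cells (6.68 ± 0.62) and middle precursors (6.68 ± 0.11) to the epidermis (8.70 ± 0.39; SD, n = 3 each). SBPASE was the one member with its lowest mean in early precursors, and its stage means spanned 1.80, against 0.48 for RCA, 0.83 for PRK and 0.77 for HPR.

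HPR, the photorespiratory member, was at 7.64, 3.93 and 6.89 on the early arrays, 5.58, 5.60 and 6.56 on the middle arrays, 5.22, 6.39 and 6.47 on the late arrays and 6.63, 6.54 and 6.88 on the guard cell arrays. The epidermis arrays stood at 8.44, 8.60 and 8.69. Mature guard cells and the epidermis had tight replicates and did not overlap. The means ran from middle precursors (5.91 ± 0.56) through late precursors (6.02 ± 0.70), early precursors (6.15 ± 1.96) and mature guard cells (6.68 ± 0.18) to the epidermis (8.58 ± 0.13; SD, n = 3 each). The probe set shared with AT5G05370 did not follow this order: its means were 3.79 ± 1.46 (early), 5.31 ± 0.96 (middle), 5.88 ± 0.28 (late), 5.87 ± 0.38 (mature guard cells) and 5.16 ± 1.05 (epidermis; SD, n = 3 each). No comparison of it with the epidermis passed (adjusted p from 0.26 to 0.926 with limma). It was called higher in late than in early precursors (2.09, SE 0.69; limma adjusted p = 0.0486) and in mature guard cells than in early precursors (2.08, SE 0.69; 0.0498). Since it names more than 1 gene its values cannot be assigned to HPR.

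The comparison of early precursors with the epidermis addresses how cells at the entry to the lineage differ from the tissue as a whole. SBPASE fell by 3.83 (SE 0.68) on the log2 scale, which is 14.2-fold, with a limma adjusted p of 0.00384. The differences were -2.42 (SE 0.71) for HPR, -1.92 (SE 0.74) for PRK and -1.90 (SE 0.60) for RCA, with limma adjusted p of 0.0534, 0.136 and 0.072, so 1 of 4 members passed, where 5.51% of all probe sets were called lower. The arrays of the 2 populations did not overlap for 3 of the 4 genes, against 9.93% of all probe sets with every early array below every epidermis array. The median difference of the 4 genes was -2.17, and that of all probe sets was 0.07. Leaving out early replicate 3 gave -4.86 for SBPASE (adjusted p = 2.2e-05) and calls for all 4 genes, with adjusted p of 0.00181 for RCA, 0.0455 for PRK and 0.0379 for HPR. Early replicate 2 was the lowest early array for all 4 genes, and leaving it out made all 4 falls smaller. SBPASE then fell by 3.21 (0.0111) and was the 1 gene called. PRK differed by -0.78 in that fit, the smallest fall over all alternative fits. Leaving out early replicate 1 gave an adjusted p of 0.0109 for HPR, and the SBPASE call was lost with only these populations in the fit (0.115).

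Middle precursors cover the step from meristemoid to guard mother cell. Relative to the epidermis, HPR fell by 2.66 (SE 0.71), which is 6.34-fold, and RCA fell by 2.29 (SE 0.60), which is 4.89-fold, with limma adjusted p of 0.0478 and 0.046. PRK differed by -2.24 (SE 0.74) and SBPASE by -2.03 (SE 0.68), with limma adjusted p of 0.103 and 0.107. All 4 genes had every middle array below every epidermis array, as did 16.2% of all probe sets, and 2 of 4 were called lower against 2.29% of all probe sets. The median difference was -2.27 for the members and -0.05 for all probe sets. The RCA call was lost without any 1 middle precursor, late precursor or mature guard cell array and without epidermis replicate 1 or 3 (adjusted p from 0.0503 to 0.158), and the HPR call without any 1 array outside the early precursors (0.0511 to 0.152). Without early replicate 2 PRK passed (0.00406), without early replicate 3 SBPASE passed (0.00573), and without all 3 early arrays all 4 genes passed in this comparison.

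**Figure D2:**
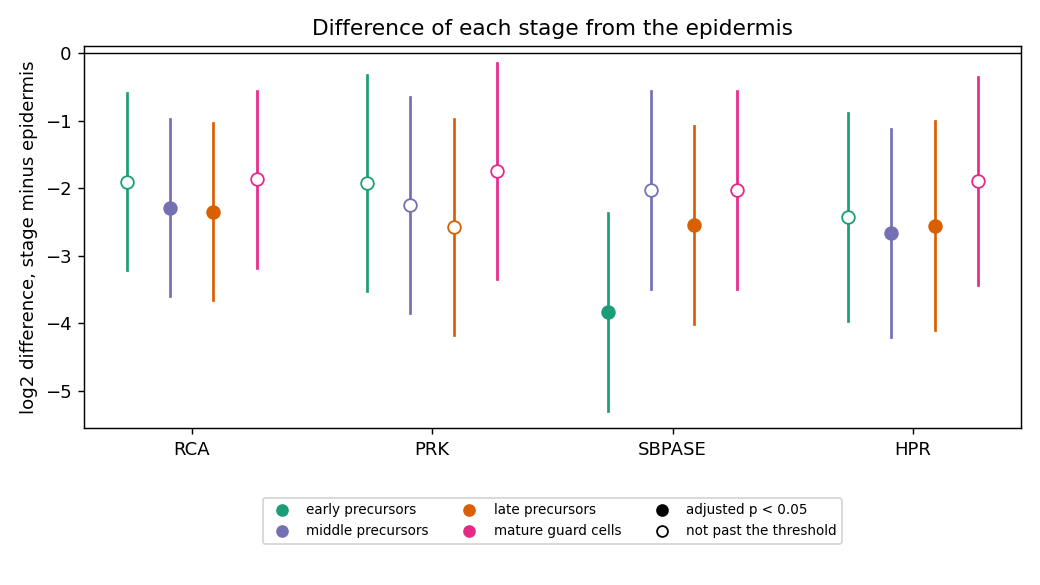
Log2 difference of each stage from the epidermis for the 4 genes, with lines for 95% intervals of limma's moderated test, not adjusted for multiple testing; filled points passed at an adjusted p of 0.05. All 16 intervals lie below 0, with 6 filled points, and SBPASE in early precursors is the lowest at -3.83.

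Late precursors cover the last division and the onset of guard cell form. Relative to the epidermis, RCA fell by 2.35 (SE 0.60), SBPASE by 2.55 (SE 0.68) and HPR by 2.55 (SE 0.71) on the log2 scale, which are 5.08-fold, 5.85-fold and 5.86-fold, with limma adjusted p of 0.0326, 0.0374 and 0.0461. PRK differed by -2.57 (SE 0.74), a larger mean difference with a limma adjusted p of 0.0509. Thus 3 of 4 members were called lower, against 3.26% of all probe sets, and all 4 had no overlap with the epidermis, as did 17.6% of all probe sets in that direction. The median difference was -2.55 for the members and -0.06 for all probe sets. Late replicate 1 was lowest of the 3 late arrays for all 4 genes. Late replicates 2 and 3 formed the closest pair of the series, with an SD of 0.209 for their difference over probe sets. They shared 255 identical values, against 48 to 247 for the other pairs of replicates. Averaged into 1 array, they left 0 of the 4 genes called here by limma, with 4 of 4 at an unadjusted p under 0.05 (adjusted p of 0.072 for RCA, 0.0789 for SBPASE and 0.0926 for HPR). The RCA call was lost without any 1 late array or epidermis replicate 1 or 3 (0.0672 to 0.13), the SBPASE call without any 1 middle, late or epidermis array (0.053 to 0.133) and the HPR call without any 1 array outside the early precursors (0.0579 to 0.142), while PRK passed without early replicate 1 (0.0384), 2 (0.00147) or 3 (0.0332).

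In mature guard cells, the end of the lineage, none of the 4 genes passed against the epidermis, where 1.62% of all probe sets were called lower. The log2 differences were -1.87 (SE 0.60) for RCA, -1.75 (SE 0.74) for PRK, -2.03 (SE 0.68) for SBPASE and -1.89 (SE 0.71) for HPR. These are 3.64-fold, 3.36-fold, 4.08-fold and 3.72-fold lower, with limma adjusted p of 0.106, 0.206, 0.114 and 0.157, and unadjusted p of 0.00889, 0.0343, 0.0104 and 0.0199. All 4 genes had every guard cell array below every epidermis array, as did 17.1% of all probe sets, and the median difference was -1.88 for the members and -0.06 for all probe sets. The SE of each gene comes from the spread of all 15 arrays, those of early precursors included. Without the 3 early precursor arrays, an alternative chosen after seeing the data, all 4 passed here (adjusted p from 0.00697 for SBPASE to 0.0192 for PRK), as did all 4 in the middle and late comparisons. Leaving out early replicate 2 alone gave calls for RCA (0.0473), PRK (0.0198) and HPR (0.00992), and leaving out early replicate 3 alone gave calls for RCA (0.0203) and SBPASE (0.00836).

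The stages were then compared with each other to ask whether the genes change along the lineage. No member passed in any of the 6 comparisons, whereas the share of all probe sets called in either direction was 9.5% for middle against early precursors, 20.2% for late against early and 20.1% for mature guard cells against early. It was 3.81% for late against middle precursors, 1.36% for mature guard cells against middle and 0.138% for mature guard cells against late. The differences nearest the threshold were those of SBPASE, which stood 1.80 (SE 0.68) higher in mature guard cells than in early precursors and 1.80 (SE 0.68) higher in middle than in early precursors, with limma adjusted p of 0.0757 and 0.104. These were also the only member differences between stages with an unadjusted p under 0.05 (0.0199 and 0.0198), and their 95% intervals ran from 0.34 to 3.26 in both comparisons. Without early replicate 3 SBPASE passed in all 3 comparisons with early precursors (adjusted p of 0.00097 for middle, 0.00169 for late and 0.000559 for mature), and without early replicate 2 PRK (0.0127) and HPR (0.0452) passed as lower in late than in early precursors.

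From late precursors to mature guard cells all 4 means were higher in mature guard cells, by 0.48 for RCA, 0.83 for PRK, 0.52 for SBPASE and 0.66 for HPR, and the limma adjusted p was 1 for each. The 95% intervals were -0.83 to 1.79 for RCA, -0.77 to 2.42 for PRK, -0.94 to 1.98 for SBPASE and -0.88 to 2.2 for HPR. Each interval includes 0 and reaches well past the mean difference, so the data do not show that the genes stayed level. HPR was the single gene without overlap in this comparison, at 6.54 to 6.88 in mature guard cells and 5.22 to 6.47 in late precursors, and 8.03% of all probe sets had every guard cell array above every late array.

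Within each population except middle precursors the 4 genes tended to stand high or low on the same arrays. In middle precursors the lowest array was replicate 1 for RCA and HPR, 2 for PRK and 3 for SBPASE, and the highest array was divided as well. Early replicate 2, late replicate 1 and mature guard cell replicate 2 were each lowest of their 3 arrays for all 4 genes, and epidermis replicate 3 and mature guard cell replicate 3 were each highest for all 4. In early precursors the departures of replicate 2 from the group mean ran from -1.23 for SBPASE to -2.27 for PRK. Early replicate 1 divided the genes, with PRK 1.03 and HPR 1.48 above the group mean, and RCA 0.37 and SBPASE 0.84 below it. Across 15 arrays, Pearson's r between departures from group means was 0.93 for RCA with SBPASE and 0.91 for PRK with HPR, and 0.46 for SBPASE with HPR, given as a description since the genes share the same arrays. Without the early arrays the 6 pairs had r between 0.56 and 0.90.

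**Figure D3:**
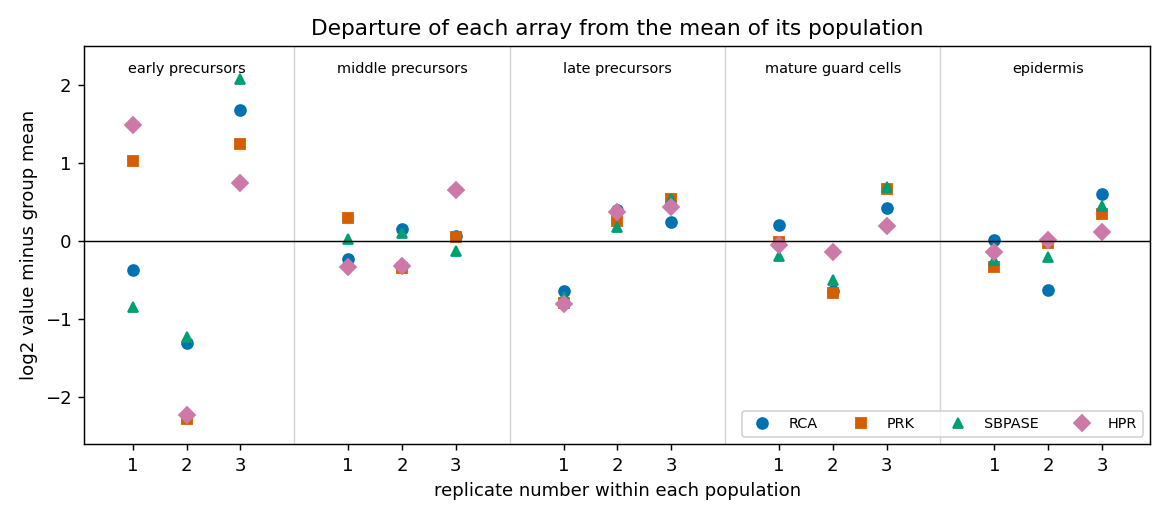
Departure of each array from the mean of its own population, in log2 units, for the 4 genes, with replicate numbers along the horizontal axis. The early precursor arrays spread most, and early replicate 2, at -1.23 to -2.27, is low for all 4 genes.

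The measured markers of other cell types were few. STOMAGEN, a peptide gene of mesophyll, was the 1 measured gene of 13 mesophyll markers. It was at 1.72, 1.92 and 1.69 in early precursors, and its range was 2.09 to 2.18 in middle precursors, 1.40 to 1.64 in late precursors and 1.74 to 2.06 in guard cells; the epidermis arrays had 2.34, 3.21 and 2.53. STOMAGEN was called lower than in the epidermis in early precursors (adjusted p = 0.011), late precursors (0.00362) and mature guard cells (0.0486), and not in middle precursors (0.121; limma). The STOMAGEN mean was lower in every stage than in the epidermis, as were the means of the 4 genes. Only epidermis replicate 2 was above 2.68 for STOMAGEN. The part of mesophyll cells in the difference of the 4 genes was not tested. The trichome gene TRY, the 1 measured of 4 trichome markers, was at 6.61 in early replicate 2, the array lowest for all 4 genes, and between 1.58 and 2.67 on the other 14 arrays; this was not tested either. SWEET11, the 1 measured of 8 vascular markers, was at 1.95 to 2.82 on all arrays.

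The other genes of carbon fixation and photorespiration were taken from lists by locus. The annotation lists a probe set of its own for 1 of 22 other Calvin cycle loci, 7 of 30 other photorespiration loci and 5 of 10 loci for Rubisco assembly; the rest were not analysed here. Most of these have no symbol in the reference table and are given by locus. AT1G56190, the measured Calvin cycle locus, fell in early, middle and late precursors by 1.01, 0.92 and 0.75 (SE 0.15), with limma adjusted p of 0.00137, 0.00438 and 0.0096, and differed by -0.38 in mature guard cells (0.186). These calls were kept in 20 of 21, 22 of 22 and 22 of 22 alternative fits.

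Of the 7 photorespiration loci, 3 fell in each of the precursor stages, mature guard cells had 1 that fell, none rose, and the median differences were -1.02, -1.14, -0.93 and -0.97 in that order of stages. Of all probe sets, 5.51%, 2.29%, 3.26% and 1.62% were called lower in these comparisons. Over the alternative fits the numbers that fell ran from 1 to 4 in each precursor stage and from 0 to 4 in mature guard cells. Among the loci called in no stage, AT2G35120 had means above the epidermis in middle precursors, late precursors and mature guard cells. AT1G79870 had means below the epidermis in every stage. AT4G22840 had a mean near background in every population, which leaves little room for a fall. AT1G32470 was at 4.66, 3.75 and 4.74 in early precursors, against 7.57, 8.31 and 8.50 in the epidermis. It fell 13.4-fold in early precursors (-3.74, SE 0.32; limma adjusted p = 2.48e-05), 3.25-fold in middle precursors (0.0094), 4.01-fold in late precursors (0.00272) and 2.54-fold in mature guard cells (0.0374). The last of these calls was kept in 12 of 22 alternative fits and the other 3 in all. AT1G32470 also rose in each later stage relative to early precursors, by 2.04 (SE 0.32) at the middle stage, 1.74 at the late stage and 2.39 in mature guard cells, with limma adjusted p of 0.00253, 0.00285 and 0.000403.

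AT1G11860 fell by 3.43 (SE 0.58) in early precursors, 2.31 in middle precursors and 2.42 in late precursors, with limma adjusted p of 0.003, 0.0387 and 0.0239. The early value was -2.63 without early replicate 1 and -4.10 without early replicate 3. In mature guard cells AT1G11860 differed by -1.81 (0.106). AT1G80380 fell by 1.49 (SE 0.36) in early precursors (0.022). LrgB, which encodes the chloroplast transporter of glycolate and glycerate, passed in middle precursors (2.05 ± 0.15 against 3.50 ± 0.59 in the epidermis, SD, n = 3; limma adjusted p = 0.0466) and late precursors (2.05 ± 0.35; 0.0376), where its means were near background, so no fold is given. The LrgB calls were kept in 8 and 10 of 21 alternative fits, and those of AT1G11860 in middle and late precursors in 12 and 17 of 22.

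Among the 5 loci for Rubisco assembly, the number that fell was 3 for early, 2 for middle and 3 for late precursors and 1 for mature guard cells, and none rose. The median differences of the 5 were -1.33, -0.87, -2.02 and -0.89 in that order, beside 5.51%, 2.29%, 3.26% and 1.62% of all probe sets called lower. Over the alternative fits 1 to 3, 1 to 2, 2 to 4 and 1 of them were called lower. AT5G51110, named after its values were seen, fell in all 4 stages, by 1.76, 1.60, 2.11 and 1.52 (SE 0.26), with limma adjusted p of 0.00128, 0.00395, 0.000566 and 0.00819, and it passed in all alternative fits of these comparisons. Cpn60beta2, a subunit of the chloroplast chaperonin, was the 1 of the 5 loci whose means in all 4 stages lay above the epidermis, by 0.22, 0.94, 1.11 and 0.80, and it passed in none (limma adjusted p from 0.154 to 0.814). In alternative fits it passed as higher in 2 of 22 for middle precursors (lowest adjusted p 0.0238) and 4 of 22 for late precursors (0.00883).

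**Figure D4:**
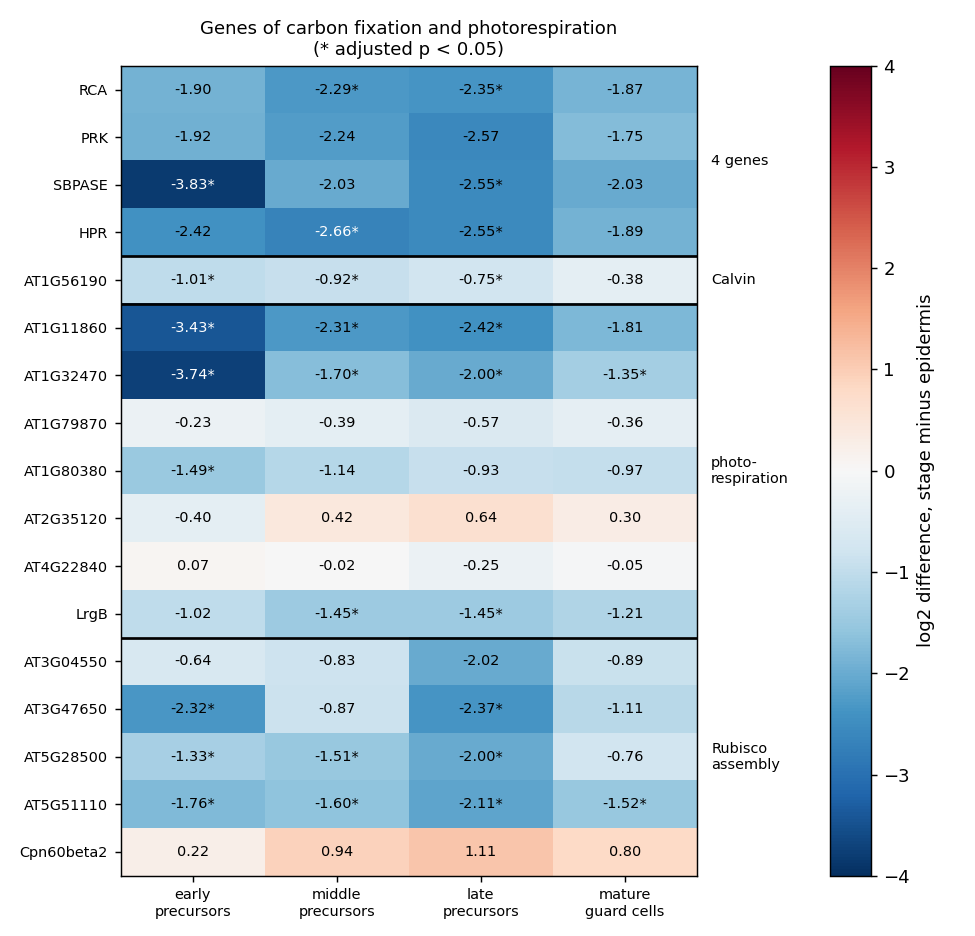
Log2 difference of each stage from the epidermis for the 4 genes and for the measured loci of the lists for the Calvin cycle, photorespiration and Rubisco assembly; a star marks an adjusted p under 0.05. Starred cells are blue (lower in the stage), and the red cells, among them those of Cpn60beta2 at up to 1.11, have no star.

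The genes with the most similar pattern were found by Pearson's r over the 15 arrays among 545 other probe sets of named genes whose group means spanned at least 1. These r share arrays and normalization and are descriptions. RCA was most like LrgB (r = 0.96), VTC4, an enzyme gene of ascorbate synthesis (0.91), and TAPX, the thylakoid ascorbate peroxidase gene (0.90). LrgB had a mean near background in every lineage stage and a mean of 3.50 in the epidermis, which limits this likeness. PRK was most like the plastid genes psbE (0.95) and petL (0.935) and the nuclear gene PIFI (0.94). SBPASE was most like PSAE-1, a photosystem I subunit gene (0.96), HCF101 (0.91) and HEME1, an enzyme gene of tetrapyrrole synthesis (0.90). HPR was most like PSAN, another photosystem I subunit gene (0.96), petL (0.93) and ycf4 (0.92). The means of PSAN were 6.18 (early), 6.67 (middle), 6.55 (late), 7.32 (mature guard cells) and 9.28 (epidermis). Without the early arrays these r lay between 0.87 and 0.97, and between members they ran from 0.71 for SBPASE with HPR to 0.95 for PRK with HPR over all 15 arrays.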

How the data were processed

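The deposited values are log2 expression. Each probe set has 1 value on an array, calculated by the authors with RMA (affy, as named in the submitters' processing notes); the log base is inferred from RMA and from the range of 1.11 to 13.4. Versions and genome build are not given in the sources used here. RMA sets the arrays to a common distribution, so a shift of all genes would not be seen. Of 20956 probe sets, 12783 are listed to 1 gene, 37 to several and 8136 to none in the annotation used. All probe sets were fitted together in limma 3.58.1 (R 4.3.3) with 1 mean per group and 10 residual degrees of freedom, without the replicate number, and 10 comparisons were tested two-sided by limma's moderated test, with Benjamini-Hochberg adjustment over all probe sets in each and a threshold of 0.05. Same-numbered arrays were treated as unpaired, as 3 of 30 pairs had correlated deviations over 0.1. This check cannot show whether they were handled together. The number of arrays limits the precision. The members and lists were chosen with earlier results of these data known. For each stage, values were given for up to 4 listed Calvin cycle or photorespiration genes with the largest called differences, and for each member the 3 most similar named genes. Alternatives were the compared groups alone, a weight per group, cyclic loess, a filter on low means, the replicate block, averaged late replicates 2 and 3, and each array left out.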

Additional observations from a re-analysis of the deposited data

How the results depend on the processing

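All 348 alternative differences of RCA, PRK, SBPASE and HPR from the epidermis were negative, from -4.86 to -0.78 on the log2 scale. Many repeat the reported difference, because group weights, the compared groups alone, the filter and the replicate block leave it unchanged. So does leaving out an array of a group that is not compared. For PRK, SBPASE and HPR every lineage array lay below every epidermis array, so leaving out 1 array could not change the sign. The count of 348 thus overstates how far the direction was tested. The number of the 16 differences that passed ran from 1 to 13 over single settings. It was 6 as reported, 10 with only the arrays of the compared groups, 12 with 1 weight per group, 8 after cyclic loess, 9 over probe sets with a mean above the highest array median, 7 with the replicate number as a block and 1 with late replicates 2 and 3 averaged. Without the 3 early precursor arrays, a setting chosen after seeing the data, 12 of 12 passed. Values are limma adjusted p throughout, and the cause of these shifts was not tested.

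With only the compared groups, SBPASE in early precursors was lost (0.115), and these passed: PRK (0.00429) and SBPASE (0.00429) in middle precursors, PRK in late precursors (0.00893), and SBPASE (0.0398) and HPR (0.00592) in mature guard cells. With 1 weight per group, PRK (0.0115) and SBPASE (0.0118) passed in middle precursors, PRK in late precursors (0.00484), and RCA (0.0314), SBPASE (0.0289) and HPR (0.0477) in mature guard cells. Cyclic loess added SBPASE in middle (0.0492) and PRK in late precursors (0.04). The filter on low means added RCA (0.0342) and HPR (0.0222) in early precursors and PRK in late precursors (0.0225). The replicate block added RCA in early (0.0421) and PRK in late precursors (0.0373) and removed HPR in middle precursors (0.0512). It also gave SBPASE 0.043 for mature guard cells against early precursors. Whether the numbers pair the samples is not known, and 7 of 15 arrays correlated best with their own number. Averaging late replicates 2 and 3 removed RCA (0.0648) and HPR (0.0674) in middle precursors and RCA (0.072), SBPASE (0.0789) and HPR (0.0926) in late precursors. Without the early arrays PRK (0.00407) and SBPASE (0.00454) passed in middle precursors, PRK in late precursors (0.00171), and RCA (0.012), PRK (0.0192), SBPASE (0.00697) and HPR (0.0072) in mature guard cells.

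Leaving out 1 array at a time gave adjusted p in early precursors of 0.00181 to 0.206 for RCA, 0.0455 to 0.304 for PRK and 0.0109 to 0.131 for HPR, and 2.2e-05 to 0.0173 for SBPASE, whose call was kept. In middle precursors it gave 0.00512 to 0.158 for RCA, 0.00406 to 0.255 for PRK, 0.00573 to 0.277 for SBPASE and 0.000933 to 0.152 for HPR. In late precursors it gave 0.0036 to 0.13 for RCA, 0.00147 to 0.158 for PRK, 0.00135 to 0.133 for SBPASE and 0.00104 to 0.142 for HPR. In mature guard cells it gave 0.0203 to 0.302 for RCA, 0.0198 to 0.427 for PRK, 0.00836 to 0.298 for SBPASE and 0.00992 to 0.325 for HPR.

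Between stages some differences changed sign, none of them called. After cyclic loess this held for mature guard cells against early precursors in RCA (0.668), PRK (0.848) and HPR (0.99) and for late against middle precursors in RCA (0.996), and with averaged late replicates for late against middle precursors in HPR (1). Leaving out 1 array also changed signs in some fits, with adjusted p of 0.128 or more where it did. Over all fits that leave out 1 array, whether or not the sign changed, the adjusted p ran from 0.242 to 0.828 for RCA, 0.051 to 0.926 for PRK and 0.0509 to 0.964 for HPR in middle against early precursors. The ranges were 0.182 to 0.91 for RCA and 0.0452 to 0.909 for HPR in late against early precursors, where the HPR value of 0.0452, without early replicate 2, kept its sign. They were 0.152 to 0.972 for RCA, 0.128 to 0.904 for PRK and 0.199 to 0.734 for HPR in mature guard cells against early precursors, 0.985 to 1 for RCA, 0.821 to 1 for PRK and 0.951 to 1 for HPR in late against middle precursors, and 0.999 to 1 for SBPASE in mature guard cells against middle precursors.

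The number of all probe sets called against the epidermis was 1868 in early precursors (1168 to 2752 leaving out 1 array, 273 with only the compared groups, 622 with 1 weight per group). It was 1157 in middle precursors (502 to 1692, 2467 with 1 weight per group, 2496 without the early arrays) and 1679 in late precursors (878 to 2175, 2877 with 1 weight per group, 858 with averaged late replicates, 2924 without the early arrays). In mature guard cells it was 820 (309 to 1268, 533 with only the compared groups, 1302 with 1 weight per group, 1944 without the early arrays). Cyclic loess moved the share of higher calls to 44.3%, against 58.6% as reported, in middle precursors, to 49.0% against 59.3% in late precursors and to 43.2% against 58.5% in mature guard cells. With only the compared groups the share moved the other way, to 63.8%, 66.6% and 71.9% in these stages.

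Between stages, in the order only the compared groups and then 1 weight per group, 1991 became 362 and 497 for middle against early precursors (1140 after cyclic loess, 703 to 3765 leaving out 1 array). For late against early precursors 4242 became 1496 and 1710 (2141 with averaged late replicates, 2132 to 5365), and for mature guard cells against early precursors 4208 became 897 and 1181 (2708 after cyclic loess, 2553 with the filter, 2319 to 5437). For late against middle precursors 799 became 1793 and 2164 (327 averaged, 1412 without the early arrays, 332 to 1016), and for mature guard cells against middle precursors 286 became 472 and 856 (644 without the early arrays, 107 to 411). For mature guard cells against late precursors 29 became 0, with 2202 at an unadjusted p under 0.05, and 87 (14 with the filter, 14 with the replicate block, 3 averaged, 3 to 69). Against early precursors, with only the compared groups, the share of higher calls rose from 57.6% to 87.85% for middle precursors. The rise was from 53.4% to 77.6% for late precursors and from 48.3% to 76.8% for mature guard cells.

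All 4 genes stood above 2.68 on every array, and the 3 arrays per population limit the precision.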

Other observations

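SBPASE stood apart from RCA and PRK in early precursors within single arrays. The log2 value of PRK minus that of SBPASE was 5.39, 2.46 and 2.68 on early precursor replicates 1, 2 and 3, against 0.94 to 2.07 on the other 12 arrays (median 1.61). The log2 value of RCA minus that of SBPASE was 3.44, 2.89 and 2.57 on the early arrays, against 0.54 to 1.61 on the other 12 arrays (median 1.02). These offsets between probe sets have no meaning as levels, and only their change between arrays can be read. In the other 4 pairs of the 4 genes the early arrays did not all lie on the same side of the other 12. For RCA minus HPR they lay on both sides, at -0.16, 2.61 and 2.63 against 0.53 to 2.02. These values were chosen after they were seen and have no test.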
